A study of Bos taurus with 4 samples.

Results

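Mitochondrial solute carriers and the machinery that brings proteins into mitochondria were followed in bovine gamma delta T cells exposed for 4 h to an apple polyphenol extract (APP) or to phosphate-buffered saline (PBS). The members were all genes whose symbol in the array's probe annotation names a carrier of the SLC25A family, a TOMM or TIMM translocase component, a VDAC pore, or SAMM50, PAM16, PMPCA, PMPCB, DNAJC19, GRPEL1 or GRPEL2. This rule found 53 genes, read by 74 probe sets, among 9155 named genes in all. Of the 53, 27 were solute carriers and 26 belonged to protein import and the outer membrane pores. PMPCB is not counted, because its probe set is also assigned to DNAJC2, and PAM16, TOMM20 and TIMM17A were not analysed here.

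The cells came from 2 calves, numbered 301 and 303, whose age the sample labels give as 1 to 6 months while the design text calls them neonatal. Gamma delta T cells were sorted from their blood to more than 97% purity and rested overnight. Cells of each calf then received APP at 42.2 µg/ml or PBS, which gave 2 APP arrays and 2 PBS arrays, paired by animal, with no other agent or genotype named in the labels. With 2 animals, p-values apply to these 2 calves only, and the spread behind them is largely borrowed across genes.

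Mitochondria make few of their own proteins and take up the rest from the cytosol. The TOM complex of the outer membrane is the common entrance, small TIM chaperones carry hydrophobic proteins across the space between the membranes, TIM23 and its motor draw proteins with a presequence into the matrix, and TIM22 inserts the carriers themselves into the inner membrane. Carriers of the SLC25 family then exchange nucleotides, amino acids, carboxylates, iron and cofactors across that membrane. Activated T lymphocytes are known to enlarge their mitochondrial mass as they prepare to divide.

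Values are log2 ratios of a gene's signal to its own median over the 4 arrays. Changes between arrays can therefore be read, but levels of different genes cannot be compared, and the sorted cell type could not be checked against its defining markers by level. In a bulk sample, fewer cells of a type and less RNA per cell cannot be told apart. The change of a gene is APP minus PBS within each calf, followed by the mean and the SD over the 2 calves, and "rose" or "fell" is used for an adjusted p under 0.05 in limma's test, in which each animal is a block. The hybridization controls bioB, bioC and bioD, bacterial transcripts added to every array, were higher on the APP array by 0.76 in calf 301 and by 0.94 in calf 303. Scaling to them lowers every change by 0.85 in the mean of the calves. The median change of all genes moves from 0.01 to -0.84. Because the shift differs between the calves, the spread behind limma's test changes too. Adjusted p-values on that scale are therefore not directly comparable with those as deposited. A rise smaller than 0.85 turns negative on it. Such rises are pointed out below as turning on the control scale, and every fall stays negative on it.

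Markers of other cell types are given against the background of 23% of all genes that rose and 29.7% that fell. Of 4 measured B cell markers 3 fell, with a list median of 0.24 and 0.34 on the PBS arrays against -0.43 and -0.27 on the APP arrays of calves 301 and 303. Of 9 monocyte and dendritic cell markers 3 rose, with list medians of -0.11 and -0.05 on PBS and 0.13 and 0.10 on APP. CD68 rose by 2.31 (adjusted p = 8.39e-05), and the other risers, CD14 and FCGR1A, by 0.46 each. None of 5 platelet and red cell markers passed in limma's test (0 at an unadjusted p under 0.05), 1 of 3 natural killer cell markers rose, and of 8 general and gamma delta T cell markers 4 fell and 1 rose. Those that fell were CD163L1, the entry found for WC1.1 (-1.08, adjusted p = 0.000204), CD247 (-0.53), CD3G (-0.47) and CD2 (-0.29, with overlap of the groups). CD5 rose by 0.62 and turns to -0.23 on the control scale. Of 3 alpha beta T cell markers 1 rose (CD8A) and 1 fell (CD8B), with overlap of the groups in both. On PBS, CD8A and CD8B stood at -1.69 and -1.06 in calf 301 and at 0.22 and 1.24 in calf 303. The difference between the 3' and 5' actin control probe sets changed by -0.33 in calf 301 and 0.03 in calf 303. For GAPDH it changed by -0.12 and -0.003. The part of these values in the results below was not tested.

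Of the 53 members 39 passed the test (73.6%), beside 52.7% of all genes. Of these 20 rose (37.7% of members) and 19 fell (35.8%), where 23% of all genes rose and 29.7% fell. Among the 26 import and pore genes 13 rose and 6 fell, with a median change of 0.25. Among the 27 carriers 7 rose and 13 fell, with a median of -0.28, against 0.01 over all genes. That median is the value of SLC25A6, whose probe sets disagree (0.30, -0.05 and -1.09). In calves 301 and 303 the carrier median was -0.06 and -0.24, and that of the import and pore genes 0.25 in each. No test was made between these lists, so the contrast is a description. Counts by role below are to be read beside the same 23% and 29.7% of all genes and were not tested either. The counts depend on the scale, since on that of the hybridization controls 4 members rose and 42 fell, beside 3.12% and 89.4% of all genes. The medians there were -0.60 for import genes, -1.13 for carriers and -0.84 for all genes, each lowered by the same amount. Without the calf as a block, 16 rose and 14 fell. Leaving out the PBS array of calf 301 from that fit gave 10 rises and 10 falls, that of calf 303 gave 10 and 9, the APP array of calf 301 gave 13 and 15, and that of calf 303 gave 14 and 14.

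**Figure D1:**
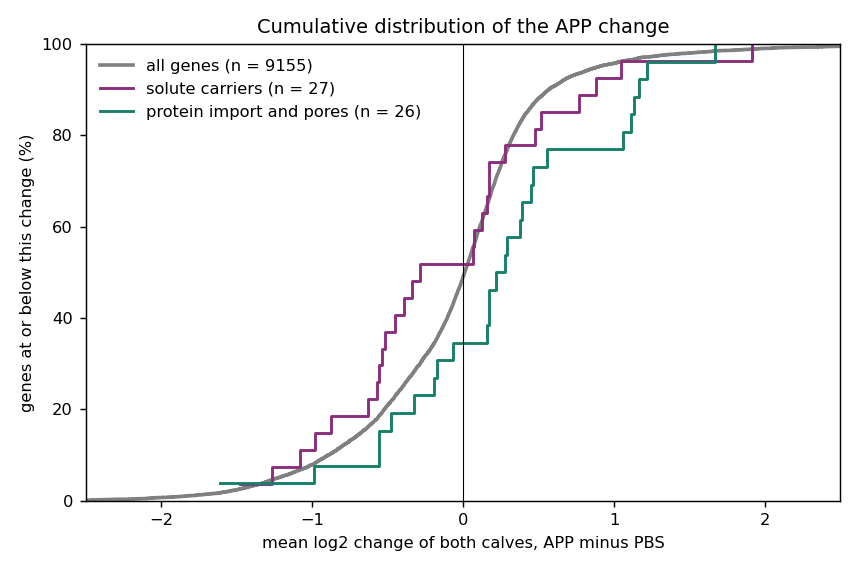
Cumulative share (%) of genes at or below a given mean log2 change of both calves, APP minus PBS, for all 9155 genes, 27 solute carriers and 26 protein import and pore genes. 57 of all genes lie outside the axis. At a change of 0 the curves of carriers and of all genes are close, the carrier curve lies above that of all genes at -0.5, and the import curve lies below it at 0.5, as deposited; scaling to the hybridization controls shifts all curves left by 0.85.

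The arrays separated the treatments for most members. Both APP arrays lay above both PBS arrays for 26 members and below them for 22, while 5 overlapped, against 36.6% and 37.2% of all genes lying above and below. The calves moved in the same direction for 50 of 53 members, beside 84.7% of all genes. The size of the change, whatever its sign, had a median of 0.48 among members and 0.32 over all genes. Counting genes that reached 2-fold in each animal, 7 members were higher on APP and 3 lower, compared with 3.5% and 6.29% of all genes.

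**Figure D2:**
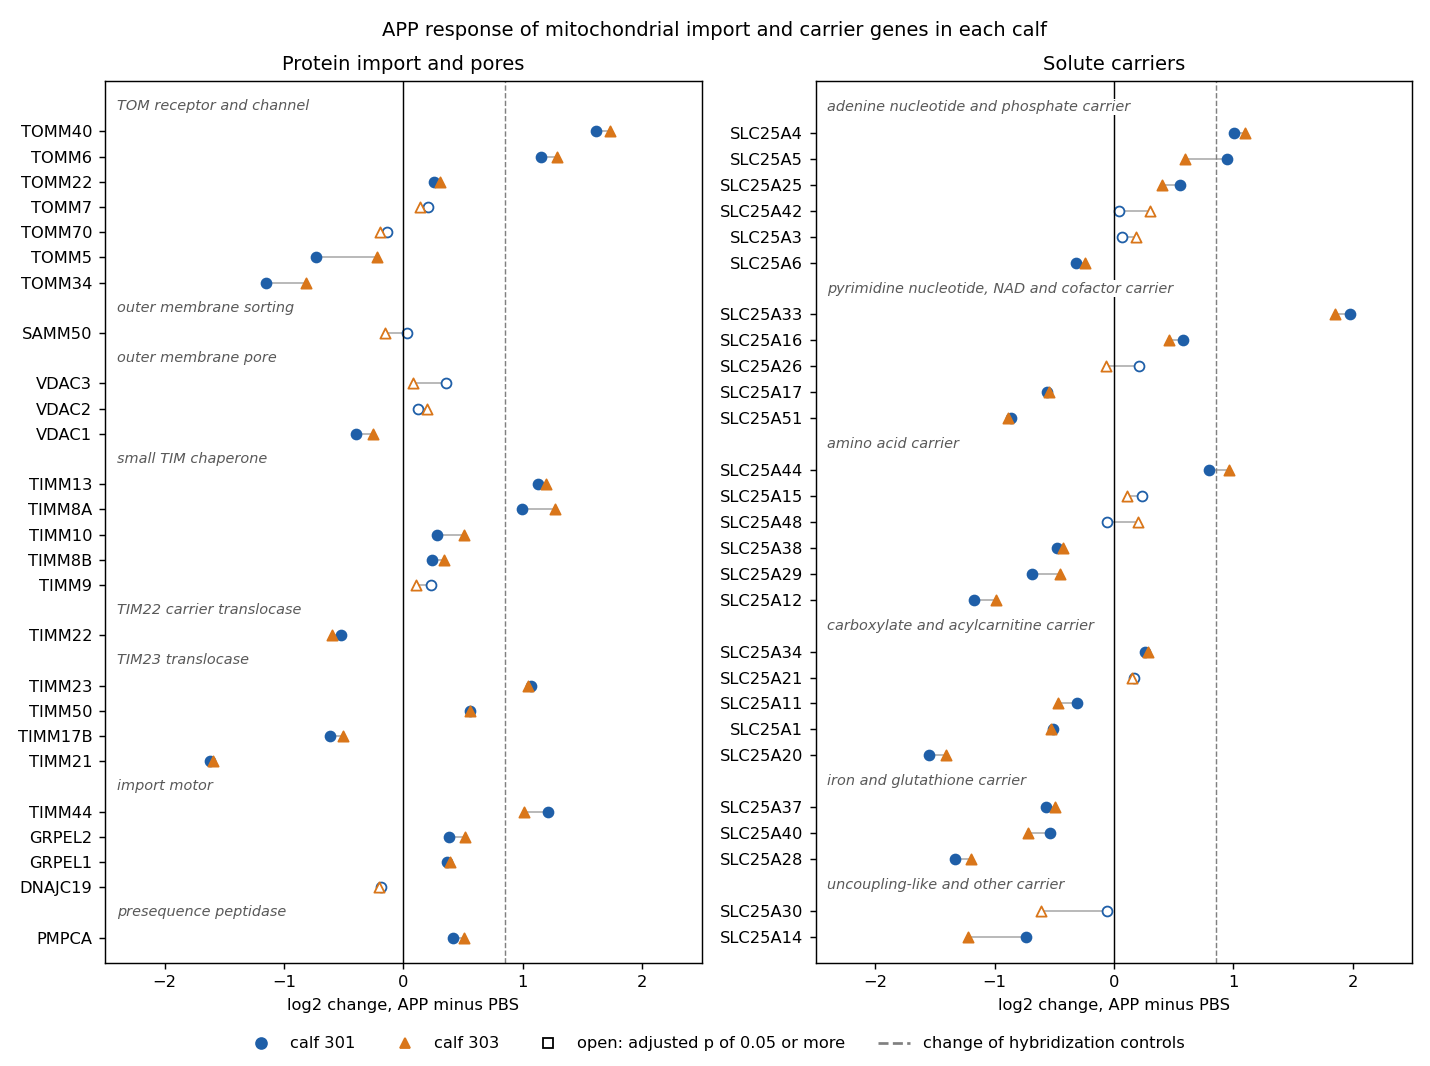
Log2 change, APP minus PBS, of each of the 53 members in calf 301 (circles) and calf 303 (triangles), grouped by role. Filled symbols mark an adjusted p under 0.05 and the dashed line marks the mean change of the hybridization controls, 0.85. Rises of 9 members lie to the right of that line in the mean of the calves, and the other 11 members that rose turn negative on the control scale.

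The channel of the TOM complex rose the most among the import genes. TOMM40, the pore through which nearly all imported proteins pass, stood at -1.07 and -0.95 on the PBS arrays of calves 301 and 303 and at 0.54 and 0.78 on their APP arrays. Its groups lay far apart and it rose 3.19-fold (1.67 ± 0.09, SD, n = 2 calves, adjusted p = 2.98e-05). TOMM6, a small subunit that steadies the complex, moved from -0.71 and -0.69 on PBS to 0.44 and 0.60 on APP, a 2.33-fold rise (1.22 ± 0.10, adjusted p = 9.21e-05). Both kept an adjusted p under 0.05 upward on the control scale, at 0.82 and 0.37.

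The other TOM subunits moved less or in the opposite direction. TOMM7, another small subunit, changed by 0.17 (adjusted p = 0.171) while TOMM70, a receptor for carrier precursors, had 0.03 on both PBS arrays and -0.12 and -0.17 on APP (adjusted p = 0.176). TOMM5 stood at 0.04 and 0.16 on the PBS arrays and at -0.69 and -0.06 on the APP arrays, so that most of its fall came from calf 301 (-0.73, against -0.22 in calf 303, adjusted p = 0.0227). That call was lost without the block (adjusted p = 0.142) and with quantile normalization (0.0571). Without the APP array of calf 301 the unblocked change of TOMM5 was -0.16.

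TOMM22, the central receptor of the complex, differed more between the animals than between the treatments. Its values were 0.16 on PBS and 0.41 on APP in calf 301, and -0.51 on PBS and -0.20 on APP in calf 303. Within each calf APP was higher, by 0.25 and 0.31, and the blocked test gave a rise (adjusted p = 0.0428) that turns to -0.57 on the control scale. The groups overlapped, and without the block the adjusted p was 0.489. The fit over probe sets gave its probe set an adjusted p of 0.0817. In unblocked fits TOMM22 changed by -0.025 without the APP array of calf 301 and by -0.052 without the PBS array of calf 303.

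TOMM34, which despite its name is a cytosolic partner of heat shock proteins that handles precursors, fell 1.98-fold. It stood at 0.35 and 0.51 on PBS and at -0.80 and -0.31 on APP (-0.98 ± 0.23, adjusted p = 0.000424). The APP array of calf 301 was the lowest of the 4. Each of its 3 probe sets fell, by means of -1.49, -1.01 and -0.45.

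The outer membrane pores moved little. VDAC1, the main voltage-dependent anion channel, had 0.12 and 0.13 on PBS and -0.28 and -0.12 on APP and fell 1.25-fold (-0.32 ± 0.10, adjusted p = 0.0297). The fall of VDAC1 did not pass without the block (adjusted p = 0.0623), with quantile normalization (0.0536) or over its separate probe sets (0.0517 and 0.0761). VDAC2 had -0.12 and -0.03 on PBS and 0.00 and 0.17 on APP, and VDAC3 had -0.35 and -0.03 on PBS and 0.00 and 0.05 on APP. Neither passed (adjusted p = 0.202 and 0.136), and both turn negative on the control scale, to -0.69 and -0.64. SAMM50, which builds barrel-shaped proteins such as TOMM40 into the outer membrane, differed by 0.03 between the arrays of calf 301 and by -0.16 between those of calf 303, with overlap and no call (adjusted p = 0.629).

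Of 5 small TIM chaperones of the intermembrane space 4 rose, where 23% of all genes rose. All 5 were higher on APP in both calves as deposited, and 84.7% of all genes had the same direction in both calves. TIMM13 stood at -0.59 and -0.79 on PBS and at 0.54 and 0.40 on APP, a 2.24-fold rise (1.16 ± 0.05, adjusted p = 9.86e-05). Its partner TIMM8A, the protein lost in a deafness and dystonia syndrome, moved from -0.60 and -0.67 to 0.39 and 0.61 (1.13 ± 0.20, adjusted p = 0.000189). TIMM13 still passed on the control scale (0.31, adjusted p = 0.0454) and TIMM8A did not (0.28, adjusted p = 0.0721). These partners form a complex together and changed by almost the same amount. The members of the other small TIM complex moved less, TIMM10 by 0.28 and 0.50 in the calves and TIMM9 by 0.23 and 0.11. TIMM10 rose (adjusted p = 0.0174) and TIMM9 did not pass (0.181). TIMM8B rose by 0.29 (adjusted p = 0.0397), but its probe set did not pass in the fit over probe sets (0.0765). Both TIMM10 and TIMM8B turn on the control scale, to -0.46 and -0.56.

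Components of the inner membrane translocase TIM23 went in opposite directions. TIMM23, the channel-forming subunit, was at -0.61 and -0.63 on PBS and at 0.46 and 0.41 on APP and rose 2.08-fold (1.06 ± 0.02, adjusted p = 0.000141), but stood at 0.21 and did not pass on the control scale (adjusted p = 0.189). TIMM50, its presequence receptor, had -0.35 and -0.27 on PBS and 0.20 and 0.28 on APP and rose 1.47-fold (adjusted p = 0.00256), or stood at -0.29 on the control scale. TIMM21, which links TIM23 to the TOM complex and to respiratory chain assembly, fell the most of all 53 members. It stood at 0.55 and 0.67 on PBS and at -1.06 and -0.93 on APP, a 3.05-fold fall (-1.61 ± 0.01, adjusted p = 3.11e-05). TIMM17B, a second channel-related subunit, had 0.41 and 0.16 on PBS and -0.20 and -0.35 on APP and fell 1.47-fold (adjusted p = 0.00282). The rises and falls within this complex were each alike in both calves.

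TIMM22, the core of the translocase that inserts carriers, fell as well. Its values were 0.15 and 0.31 on PBS and -0.37 and -0.28 on APP (-0.56 ± 0.05, adjusted p = 0.00266), and both of its probe sets fell.

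Of 4 measured motor genes 3 rose, as did the processing peptidase subunit. TIMM44, which anchors the heat shock protein of the matrix to the channel, moved from -0.85 and -0.54 on PBS to 0.36 and 0.48 on APP, 2.16-fold (1.11 ± 0.14, adjusted p = 0.000155). TIMM44 stood at 0.26 on the control scale and did not pass (adjusted p = 0.0936). The nucleotide exchange factors GRPEL1 and GRPEL2 rose by 0.37 and 0.45 (adjusted p = 0.0143 and 0.00744), GRPEL2 from -0.22 and -0.29 on PBS to 0.17 and 0.23 on APP. PMPCA, a subunit of the peptidase that removes presequences, had -0.19 and -0.35 on PBS and 0.22 and 0.16 on APP and rose 1.38-fold (adjusted p = 0.00629). On the control scale GRPEL1 turns to -0.48, GRPEL2 to -0.40 and PMPCA to -0.39. DNAJC19, a cochaperone of the motor, was lower on APP by about the same in each animal (-0.19 and -0.20) and did not pass (adjusted p = 0.126). The probe set shared by PMPCB and DNAJC2, which is outside the counts, changed by -0.44 and -0.45.

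**Figure D3:**
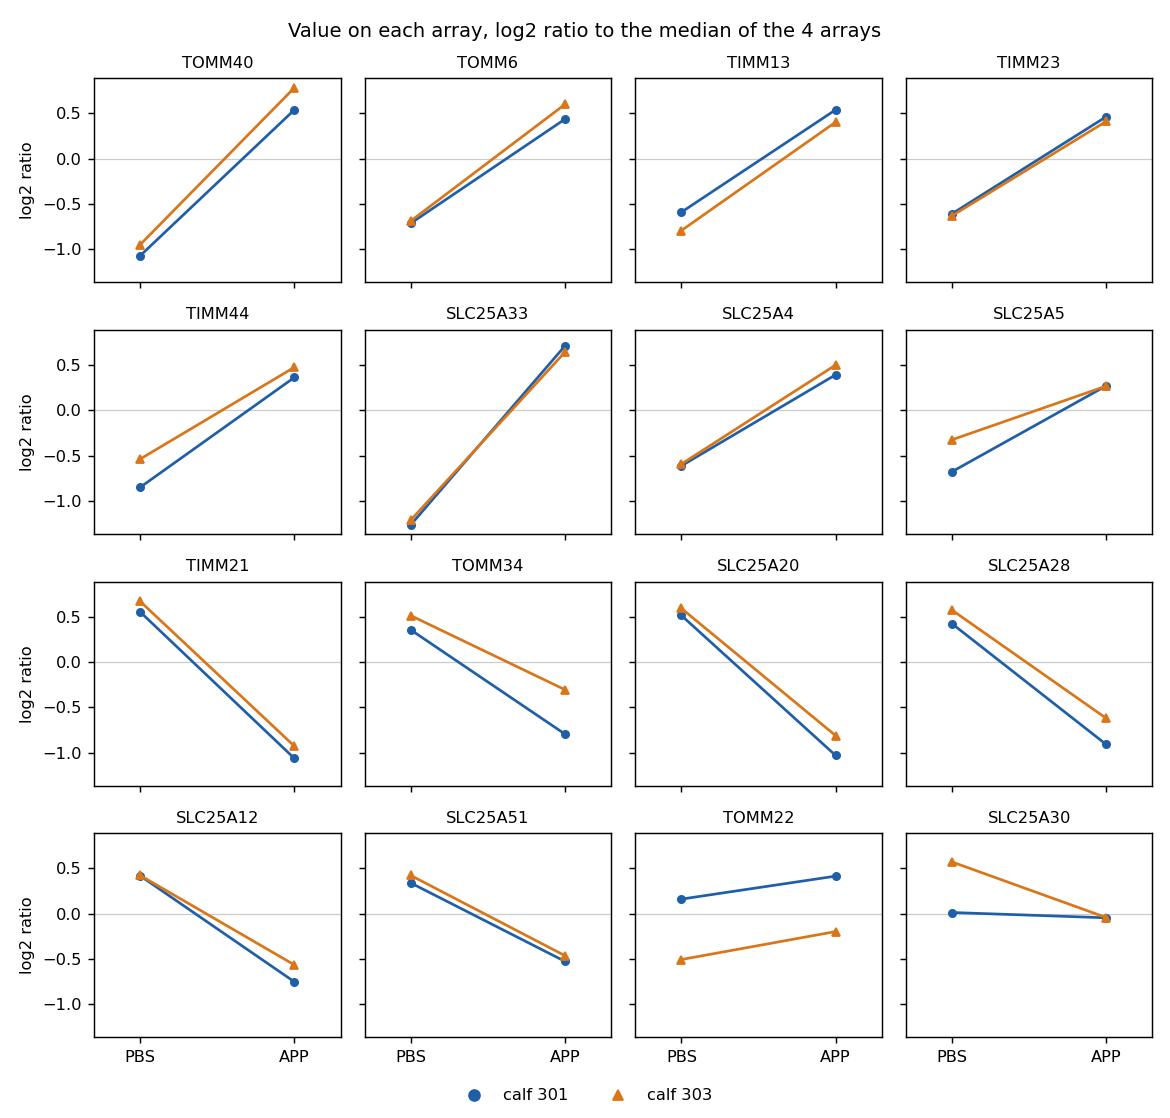
Log2 ratio to the median of the 4 arrays for 16 members on each array, PBS at left and APP at right, with calf 301 as circles and calf 303 as triangles joined by lines. Lines of both calves are steep and nearly parallel for TOMM40, SLC25A33 and TIMM21. TOMM22 shows separate lines for the animals, and SLC25A30, which did not pass, is high on the PBS array of calf 303. On the control scale SLC25A5 (-0.080) and TOMM22 (-0.57) turn negative.

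Among the carriers, the pyrimidine nucleotide carrier SLC25A33 rose the most of all members. This carrier, which brings pyrimidine nucleotides into the matrix for mitochondrial nucleic acid synthesis and is known as a growth factor response gene, stood at -1.26 and -1.21 on PBS and at 0.71 and 0.64 on APP. It rose 3.77-fold (1.92 ± 0.09, SD, n = 2 calves, adjusted p = 2.01e-05), more than 98.9% of all genes, and still stood at 1.06 on the control scale. Its probe sets rose by 1.70 and 2.13.

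The ADP/ATP carriers, which exchange matrix ATP for cytosolic ADP, did not move as a unit. SLC25A4 moved from -0.61 and -0.59 on PBS to 0.39 and 0.50 on APP, 2.07-fold (1.05 ± 0.06, adjusted p = 0.000154). SLC25A4 stood at 0.20 on the control scale and did not pass (adjusted p = 0.206). SLC25A5, the form typical of dividing cells, had -0.68 and -0.32 on PBS and 0.27 on both APP arrays, a 1.71-fold rise (0.77 ± 0.25, adjusted p = 0.00149) that turns to -0.080 on the control scale. SLC25A6 had 0.06 and 0.19 on PBS and -0.26 and -0.05 on APP and fell 1.22-fold (adjusted p = 0.0431). That call was carried by 1 of 3 probe sets and was lost with the median of the probe sets (-0.05, adjusted p = 0.691), without the block (0.118) and with quantile normalization (0.118). These 3 transcripts are closely related in sequence, so signal shared among their probe sets is possible and was not tested.

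Other carriers of phosphate, adenine nucleotides and coenzyme A changed less. SLC25A25, an ATP-magnesium and phosphate carrier controlled by calcium, moved from -0.17 and -0.20 to 0.38 and 0.21 and rose 1.39-fold (adjusted p = 0.00602), or stood at -0.37 on the control scale. Its probe sets changed by 0.66 and 0.30, and the latter did not pass in the fit over probe sets (adjusted p = 0.0727). SLC25A3, the phosphate carrier that feeds ATP synthase, had -0.05 and -0.04 on PBS and 0.02 and 0.14 on APP (adjusted p = 0.313), and turns to -0.73 on the control scale. SLC25A42, which carries coenzyme A, changed by 0.04 and 0.30 (adjusted p = 0.219).

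Of the 5 carriers of pyrimidine nucleotides and cofactors, 2 rose and 2 fell. SLC25A51, the carrier that supplies NAD to the matrix, stood at 0.34 and 0.42 on PBS and at -0.53 and -0.46 on APP and fell 1.84-fold (-0.88 ± 0.01, adjusted p = 0.000316). SLC25A17, a carrier of peroxisomes rather than mitochondria, fell by 0.56 and 0.55 in the calves (adjusted p = 0.00259). SLC25A16 rose 1.43-fold, from -0.24 and -0.27 to 0.34 and 0.19 (adjusted p = 0.00405), and turns to -0.33 on the control scale. SLC25A26, the carrier of the methyl donor S-adenosylmethionine, changed by 0.21 and -0.07 (adjusted p = 0.624), and its arrays overlapped.

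Of 6 genes grouped here as amino acid carriers, SLC25A48 among them, 3 fell and 1 rose. SLC25A12, which exchanges aspartate for glutamate in the malate-aspartate shuttle, had 0.42 on both PBS arrays and -0.75 and -0.57 on APP and fell 2.11-fold (-1.08 ± 0.13, adjusted p = 0.000169). All 3 of its probe sets fell, by 0.61 to 1.40. SLC25A44, linked to branched-chain amino acids, was the riser, from -0.54 and -0.36 to 0.26 and 0.61 (0.88 ± 0.12, adjusted p = 0.000389), and stood at 0.03 on the control scale, where it did not pass. SLC25A38, the glycine carrier needed for heme synthesis, fell by 0.45 and SLC25A29, a carrier of basic amino acids, fell by 0.57 (adjusted p = 0.0066 and 0.00371). SLC25A15, the ornithine carrier, changed by 0.17 and SLC25A48 by 0.07, and neither passed (adjusted p = 0.185 and 0.602).

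Of 5 carriers of carboxylates and acylcarnitines, 3 fell and 1 rose. SLC25A20, which brings acylcarnitines into the matrix for fatty acid oxidation, stood at 0.51 and 0.59 on PBS and at -1.03 and -0.81 on APP and fell 2.78-fold (-1.48 ± 0.10, adjusted p = 4.91e-05). Its 2 probe sets changed by -1.42 and -1.53. SLC25A1, the citrate carrier that supplies cytosolic acetyl units, fell by 0.52 (adjusted p = 0.00354). The 2-oxoglutarate and malate carrier SLC25A11 had 0.23 and 0.05 on PBS and -0.08 and -0.41 on APP and fell 1.31-fold (adjusted p = 0.0149). That call rested on a probe set whose suffix marks a match to several transcripts, did not pass without the block (adjusted p = 0.0958), and was 0.12 with that probe set left out. SLC25A34 rose by 0.28 (adjusted p = 0.0452) and turns to -0.58 on the control scale, and neither of its probe sets passed alone. SLC25A21, an oxodicarboxylate carrier, changed by 0.16 (adjusted p = 0.199).

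All 3 measured carriers of iron and glutathione fell. SLC25A28, mitoferrin 2, stood at 0.42 and 0.57 on PBS and at -0.91 and -0.62 on APP and fell 2.40-fold (-1.26 ± 0.10, adjusted p = 7.9e-05). SLC25A37, mitoferrin 1, which serves iron import in red cell precursors, fell 1.45-fold (adjusted p = 0.00326). SLC25A40, a carrier linked to mitochondrial glutathione, moved from 0.23 and 0.32 to -0.31 and -0.40 (-0.63 ± 0.13, adjusted p = 0.00201). None of these arrays overlapped between treatments.

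SLC25A14, a relative of the uncoupling proteins, fell 1.97-fold, with 0.31 and 0.40 on PBS and -0.43 and -0.82 on APP (-0.98 ± 0.34, adjusted p = 0.000867). SLC25A30, another relative, stood at 0.57 on the PBS array of calf 303 and between -0.05 and 0.01 on the other arrays. Its change was -0.06 in calf 301 and -0.61 in calf 303, a wider gap than for any other member, and it did not pass (adjusted p = 0.0863). After it came TOMM5, with a gap of 0.51, and SLC25A14, with 0.48.

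Probe sets of the same gene did not always move together. Of the 53 members 15 were read by several probe sets, and in 6 of these the mean changes differed by more than 0.5. In GRPEL2, 3 probe sets rose by 0.68 to 0.90 and the fourth fell by 0.67, so its gene mean of 0.45 describes none of them. SLC25A5 had a probe set that rose by 1.20 and 1.22 in the calves and another that changed by 0.70 and -0.03. The 3 of SLC25A6 changed by 0.30, -0.05 and -1.09, and those of SLC25A11 by 0.12 and -0.90. The other pair of genes with such a spread, TOMM34 and SLC25A12, had probe sets that all fell. Over all 74 probe sets 20 rose and 25 fell, where 16.3% of all probe sets rose and 23.6% fell.

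**Figure D4:**
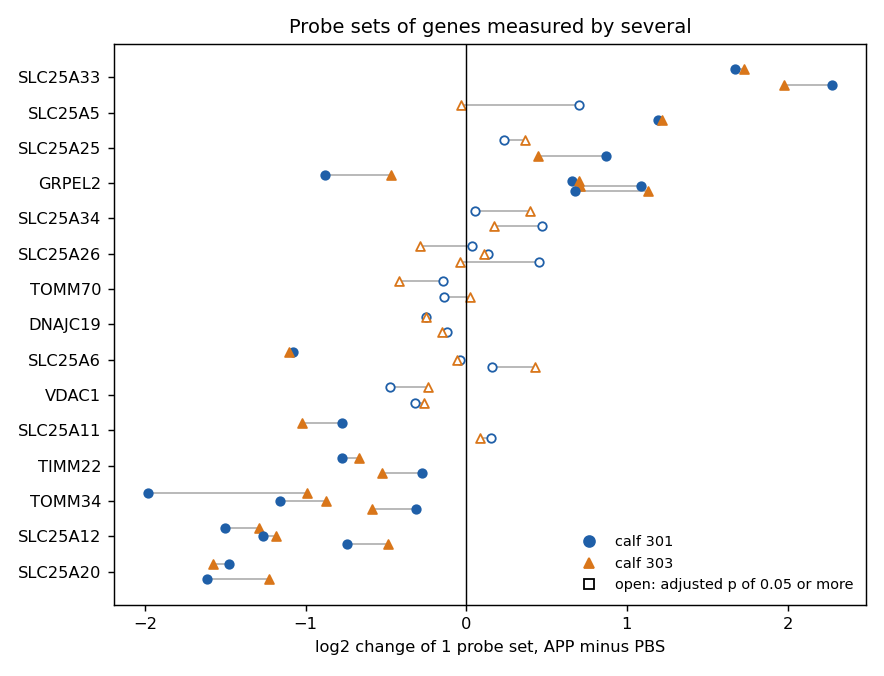
Log2 change, APP minus PBS, of each probe set of the 15 members read by several, in calf 301 (circles) and calf 303 (triangles), with filled symbols for an adjusted p under 0.05 over all probe sets. The probe sets of SLC25A20, SLC25A12, TOMM34 and TIMM22 lie on 1 side of 0, while those of GRPEL2, SLC25A6 and SLC25A11 lie on both. On the control scale each symbol shifts left by 0.85 on average, which puts all but the largest rises below 0.

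Differences between the animals were minor beside the response. The difference of calf 303 minus calf 301, averaged over treatments, had a median size of 0.10 among members and 0.11 over all genes. TOMM22 was the only member called for it in this fit (-0.64, adjusted p = 0.0294), where 1.7% of all genes were called. TOMM22 did not pass with equal array medians (adjusted p = 0.0523), quantile normalization (0.133) or the median of probe sets (0.0527). It passed with robust eBayes (adjusted p = 0.0284), with the pseudocount (0.0310) and without suffixed probe sets (0.0352). On the control scale TOMM22 stood at -0.82 (adjusted p = 1.28e-05). That scale lowers the calf difference of every gene by the same amount and alters the spread behind the test. This pass is therefore not separate support. Between the calves, the APP change of a member differed by a median of 0.12, against 0.15 over all genes.

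**Figure D5:**
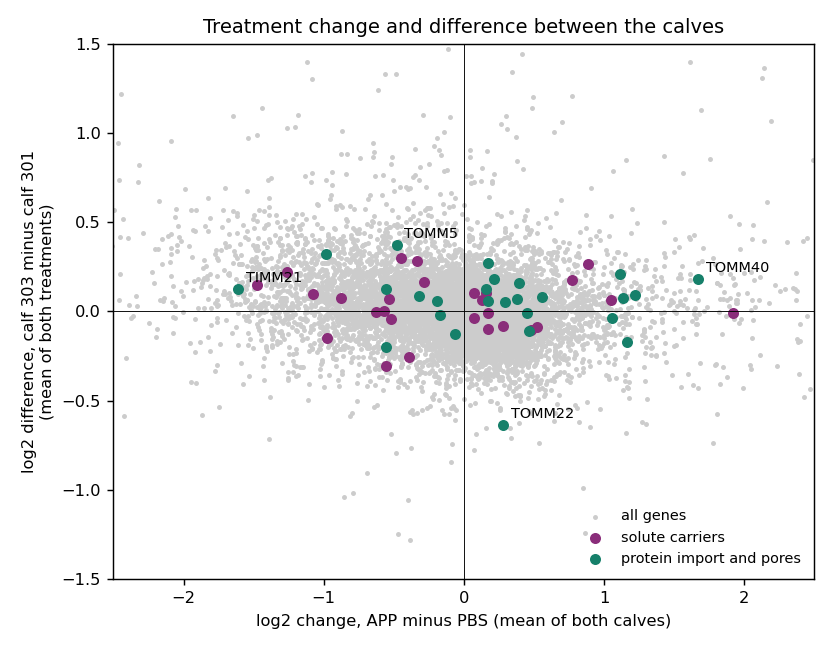
Mean log2 change, APP minus PBS, against the log2 difference of calf 303 minus calf 301 for all genes (grey), solute carriers and protein import and pore genes. 69 genes lie outside the axes. Members spread along the treatment axis from -1.61 (TIMM21) to 1.92 (SLC25A33) and reach 0.37 (TOMM5) on the calf axis, except TOMM22 at -0.64. Scaling to the hybridization controls moves all points left by 0.85 and down on the calf axis, where TOMM22 goes to -0.82.

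Genes that work beside the members were also counted. Their counts are to be read beside the 23% of all genes that rose and the 29.7% that fell. No list was tested against these shares. Of 15 measured chaperones and proteases of the matrix and inner membrane, 7 rose and 5 fell. PHB1, prohibitin of the inner membrane, moved from -0.81 and -0.78 on PBS to 0.76 and 0.49 on APP and rose 2.68-fold (adjusted p = 7.7e-05), and HSPA9, the heat shock protein that powers the import motor, rose by 0.84, or stood at -0.013 on the control scale. IMMP1L, a subunit of the inner membrane peptidase, fell 2.12-fold (adjusted p = 0.000197).

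Of 16 other import, insertion and transport genes, 6 rose and 4 fell. CHCHD4, the oxidoreductase that traps small TIM proteins in the intermembrane space by forming disulfides, stood at -0.96 and -0.77 on PBS and at 0.47 and 0.62 on APP and rose 2.66-fold (adjusted p = 4.98e-05). The inner membrane protein LETM1 rose by 0.91 and MPC1, a subunit of the mitochondrial pyruvate carrier, fell by 0.64 (adjusted p = 0.000708 and 0.00171). LETM1 stood at 0.06 on the control scale.

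Of 12 genes of cristae and membrane organisation, none rose and 3 fell in limma's test. At an unadjusted p under 0.05, 1 was higher and 3 were lower. APOOL, a subunit of the cristae-organising MICOS complex, had 0.68 and 0.83 on PBS and -2.04 and -1.35 on APP and fell 5.47-fold (adjusted p = 2.81e-05). The fusion protein gene OPA1 fell by 0.50 and the fission factor gene MFF by 0.51 (adjusted p = 0.00506 and 0.00538).

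Of 12 regulators of mitochondrial gene expression, 5 rose and 3 fell. MYC, a transcription factor that drives growth genes, moved from -1.26 and -1.17 to 0.61 and 0.66 and rose 3.60-fold (adjusted p = 2.05e-05), by 1.85 beside 1.92 for SLC25A33 and 1.67 for TOMM40. A link between these changes was not tested. POLG2, an accessory subunit of the mitochondrial DNA polymerase, fell 3.07-fold and TFB1M, a methyltransferase of the mitochondrial ribosome, fell 2.04-fold (adjusted p = 4.54e-05 and 0.000707). On the control scale these lists held 1, 1, 0 and 1 genes that rose and 9, 14, 12 and 8 that fell, in the order given here. Of all genes, 3.12% rose and 89.4% fell on that scale.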

How the data were processed

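The authors summarised probe sets of an Affymetrix bovine array with RMA, per the submitters' processing notes, with version and options not given in the sources used here. Labelling started from 15 µg of total RNA, per the labels' protocols. The deposited values are linear ratios of each probe set to its own median over the 4 arrays, which was found from the values: the mean of the middle values lay between 0.982 and 1.00 for every probe set. Array medians ran from 0.991 to 0.995. The number of arrays limits the precision.

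Ratios were log2 transformed without further scaling. The 112 control probe sets were left out, and 13292 of 24016 others had 1 gene symbol. Symbols were updated through RefSeq (ARS-UCD2.0, names only; 13263 matched by identifier, 29 kept the older symbol), and probe sets of a gene were averaged. The treatment was tested with limma 3.58.1 in R 4.3.3 (lmFit and eBayes, two-sided, Benjamini-Hochberg over 9155 genes) with the calf as a block, since sample titles carry the same calf numbers under APP and PBS. Over probe sets, the calf difference on PBS and that on APP had r = 0.514. With 1 residual degree of freedom, the spread is largely borrowed across genes. With 2 arrays against 2, an exact permutation test cannot go below p = 0.33, and none was made. The fit was run on simulated data whose spread was drawn from limma's own prior for these genes. Those data held no shift of scale, so the run cannot speak to that of the hybridization controls.

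The members and gene lists were chosen with earlier results of these data known. By rule, members given on every array are the 6 largest rises and falls past the threshold among carriers and among import genes, core genes of each kind where measured, the 3 with the widest gap between calves, and members whose probe sets differ by over 0.5. Of each neighbouring list, the 3 largest changes are named. Alternatives were the fit without the block, arrays left out, other scalings, other handling of probe sets, robust eBayes, a pseudocount of 0.1 and wider matching of symbols, which added no member.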

Additional observations from a re-analysis of the deposited data

Results flagged for a closer look

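The hybridization controls lie outside the measured genes. Their 14 probe sets for bioB, bioC and bioD were higher on the APP arrays by 0.851 on the log2 scale in the mean of the calves, in both calves. They are named here because a signal in data outside the comparison stood above its level in the PBS arrays. The cause was not tested.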

How the results depend on the processing

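The count of 20 members that rose and 19 that fell stayed within 1.5 times under equal array medians, quantile normalization, the median of probe sets, leaving out suffixed probe sets, the fit over probe sets, robust eBayes, the pseudocount and wider symbol matching. In the fit without the replicate block 16 rose and 14 fell, all of them among the 20 and 19. Scaled to the hybridization controls, 4 rose and 42 fell, beside 3.12% and 89.4% of all genes. That scale subtracts 0.85 from every change in the mean of the calves and also alters the spread behind the test. Without single arrays, in unblocked fits, 10 to 14 members rose and 9 to 15 fell, with the lowest counts without either PBS array (10 and 10 without that of calf 301, 10 and 9 without that of calf 303) and 13 rises without the APP array of calf 301. On the control scale 21 members turned negative, 11 of them called as deposited. Among genes named by rule these were GRPEL2 (-0.40), PMPCA (-0.39), SLC25A16 (-0.33), SLC25A25 (-0.37), SLC25A3 (-0.73), SLC25A5 (-0.080), TIMM50 (-0.29), TOMM22 (-0.57), VDAC2 (-0.69) and VDAC3 (-0.64), and, of the neighbouring lists, HSPA9 (-0.013). Of the other members that rose, GRPEL1 (-0.48), TIMM10 (-0.46), TIMM8B (-0.56) and SLC25A34 (-0.58) turned too. SLC25A11 changed by 0.12 without suffixed probe sets. TOMM22 ran from -0.052 to 0.61 when 1 array was left out. Signal over background is unknown, so a gene near background may have a compressed change.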
